A study of Mus musculus with 24 samples.

Results

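Spint1, BC018473, Cygb, Zfp979, D17H6S56E-5 and Klra17 were 6 transcripts with a large difference between NOD and B6 dendritic cells, out of 19938 genes with a usable probe set and 11228 genes tested. They were chosen by their NOD minus B6 differences in log2 value over the 4 conditions of subset and injection, so every NOD against B6 value of theirs is a description and carries no test. The choice had no stated minimum. Each gene was read from the probe set whose only annotated symbol is that gene, and each had 1 such probe set. All 6 passed the filter on low values, which kept genes that exceeded the median of the array on 3 or more of 24 arrays. Across subset and injection the sign of the strain difference was the same for each of the 6, with Spint1 and D17H6S56E-5 lower in NOD and the other 4 higher. The size was not constant: for Cygb it ran from 0.54 to 3.83 on the log2 scale.

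The cells were splenic conventional dendritic cells (cDC) of female mice, 8 to 10 weeks old, taken 12 h after an injection of PBS or of CpG-A, a DNA ligand of Toll-like receptor 9. The strains were C57BL/6 (B6, the control strain) and NOD/ShiLt (NOD, which develops autoimmune diabetes spontaneously). CD11c+ cells of digested spleen were sorted into a CD8+ and a CD11b+ subset, which gives 8 groups of 3 arrays: each subset, from each strain, after each injection. None of the groups carries an engineered allele as far as the labels say. Whether replicates were separate mice or pools is not given. The p-values set a difference against the spread between these arrays, and that spread may be technical.

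All values are deposited log2 expression values, so a difference of 1 is a 2-fold difference, and the error of a difference is its standard error (SE) from a limma fit over all 24 arrays. Array medians lay between 5.79 and 5.87, and the mean correlation of an array with the others of its group was 0.95 to 0.988. Against the markers of the sorts, the mean log2 value of 8 CD8+ cDC markers was 9.24 to 10.60 in the CD8+ groups and 7.25 to 7.59 in the CD11b+ groups. The mean of 6 CD11b+ cDC markers was 8.18 to 9.07 in the CD11b+ groups and 6.22 to 6.66 in the CD8+ groups. Markers of other cells did differ between groups: natural killer (NK) cell markers averaged 9.65 in CpG-injected B6 CD11b+ cells against 5.70 to 6.90 in the other 7 groups. B cell markers had higher means in NOD, with 0 to 2 of 5 called in each condition, and red pulp macrophage markers lower means, with 5 of 9 called lower in CD11b+ cells after PBS. Their values stand beside the transcripts they move with, and in bulk samples fewer cells of a type and less RNA per cell cannot be told apart.

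The 6 genes have no single function in common. Spint1 encodes HAI-1, a membrane-bound Kunitz-type inhibitor of trypsin-like serine proteases such as matriptase, hepsin and hepatocyte growth factor activator. Cygb encodes cytoglobin, an oxygen-binding heme protein of the globin family. Klra17 encodes Ly49Q, a Ly49 receptor with an inhibitory motif that binds MHC class I and that, unlike most Ly49 receptors of NK cells, is found on plasmacytoid dendritic cells and other myeloid cells. Zfp979 encodes a KRAB zinc finger protein, a class of DNA-binding repressors that act through the corepressor Trim28. BC018473 is annotated as a long non-coding RNA, and D17H6S56E-5 lies in the MHC region of mouse chromosome 17 between Lsm2 and Vars. CpG DNA activates dendritic cells, which then change a large part of their transcriptome, so the CpG groups show how a strain difference behaves when the cell state moves.

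The promoters of 3 of these genes are shown because their transcripts fell after CpG in B6 cells. RefSeq sequences of the GRCm38.p6 assembly, which is C57BL/6J, matched 4 of the 6 genes, and Cygb and BC018473 had no entry. Of the bases before the annotated start, 250 are given for Spint1 (chr2:119237110-119237359, + strand) and Klra17 (chr6:129876673-129876922, - strand), and a 30 base stretch (chr17:35000814-35000843, - strand) for D17H6S56E-5, whose window is entered by the annotated bodies of Vars and of D17H6S56E-5 itself. Capitals mark the motif matches.
Spint1: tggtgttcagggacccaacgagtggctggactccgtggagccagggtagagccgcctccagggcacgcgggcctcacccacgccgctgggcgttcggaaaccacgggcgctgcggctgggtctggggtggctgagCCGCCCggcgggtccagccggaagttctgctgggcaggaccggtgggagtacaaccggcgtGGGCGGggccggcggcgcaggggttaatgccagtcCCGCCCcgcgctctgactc
Klra17: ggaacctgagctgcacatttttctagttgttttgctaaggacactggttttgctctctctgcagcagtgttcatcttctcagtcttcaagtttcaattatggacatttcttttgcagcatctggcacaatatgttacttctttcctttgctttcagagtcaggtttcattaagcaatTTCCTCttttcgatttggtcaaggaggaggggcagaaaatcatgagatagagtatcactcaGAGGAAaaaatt
D17H6S56E-5: tagagcgcggGAAAACGAAAgccctagtgt
The search covered 6 motifs on both strands: the interferon-stimulated response element (ISRE) GAAANNGAAA, the GAS element TTCNNNGAA, the PU.1 box GAGGAA, an NF-kB site GGGANNTTCC, an AP-1 site TGANTCA and the GC box GGGCGG. Spint1 held 3 GC boxes in a window of 72.8% GC, against a median of 52.4% over 32851 promoters, of which 32.7% hold a GC box. Klra17 held 2 PU.1 boxes, found in 23.3% of promoters, in a window of 39.6% GC. D17H6S56E-5 held an ISRE, found in 2.98% of promoters. Zfp979, which passed in no CpG comparison and is not shown, also held 2 PU.1 boxes and 1 GC box. No matches overlapped, a match is a string of letters and not a shown binding site, and the NOD sequence of these windows was not used.

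Spint1 was high in B6 cells and near the array median in NOD cells. In B6 CD8+ cDC its log2 values were 8.67, 8.41 and 8.84 after PBS and 6.72, 6.53 and 7.32 after CpG. In B6 CD11b+ cDC they were 9.26, 9.02 and 8.99 after PBS and 7.94, 7.80 and 8.14 after CpG. The 12 NOD arrays lay between 5.32 and 6.02, with a median of 5.72, below every B6 array. The order of the B6 groups was CD11b+ PBS (9.09 ± 0.15, SD, n = 3), CD8+ PBS (8.64 ± 0.22), CD11b+ CpG (7.96 ± 0.17) and CD8+ CpG (6.86 ± 0.41), with no overlap between neighbours, while the 4 NOD groups (5.56 to 5.78) overlapped one another. Spint1 exceeded the array median on 12 of 12 B6 arrays and on 3 of 12 NOD arrays. The NOD minus B6 difference was -3.08 in CD8+ cells and -3.36 in CD11b+ cells after PBS (SE 0.18). After CpG it was -1.24 and -2.18. No fold is given, as the files hold no call of signal over background and the NOD values sit near the array median.

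D17H6S56E-5 was also high in B6 and low in NOD. Its values in B6 CD8+ cells were 9.03, 9.29 and 9.15 after PBS and 7.98, 8.41 and 8.80 after CpG. In B6 CD11b+ cells they were 9.46, 9.16 and 9.34 after PBS and 9.25, 9.26 and 9.50 after CpG. The B6 CD8+ CpG group stood below the other 3 B6 groups, which overlapped. The NOD arrays ran from 5.30 to 6.38 with a median of 6.02, and all 4 NOD groups overlapped. NOD minus B6 was -3.13 and -3.40 after PBS in CD8+ and CD11b+ cells and -2.61 and -3.10 after CpG (SE 0.20). No fold is given, as the NOD values sit near the array median, which was exceeded on 9 of 12 NOD arrays. The spread of the difference over the 4 conditions, 0.78, was the smallest of the 6 genes, with NOD at that low level throughout.

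BC018473 was at the low end of the scale in B6 and high in NOD. The B6 arrays ran from 4.32 to 5.18 with a median of 4.70, none of them above its array's median, and the 4 B6 groups overlapped. In NOD CD8+ cells the values were 8.06, 7.10 and 7.34 after PBS and 7.40, 6.78 and 6.89 after CpG. In NOD CD11b+ cells they were 9.63, 9.68 and 9.72 after PBS and 9.80, 9.21 and 9.29 after CpG. The NOD CD11b+ arrays were all above the NOD CD8+ arrays, and within each subset the PBS and CpG arrays overlapped. Relative to B6, NOD was higher by 2.62 and 2.33 in CD8+ cells (PBS, CpG) and 5.06 and 4.88 in CD11b+ cells (SE 0.22). No fold is given, since its B6 signal was not shown to be above background.

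Cygb was above the array median on all 24 arrays. In B6 CD8+ cells its values were 6.26, 6.69 and 6.23 after PBS and 6.95, 6.50 and 6.77 after CpG, and in B6 CD11b+ cells 7.03, 7.31 and 7.20 and then 7.47, 7.17 and 7.34. In NOD CD8+ cells they were 8.25, 7.63 and 7.94 after PBS and 7.12, 7.12 and 7.59 after CpG. In NOD CD11b+ cells they were 11.06, 10.95 and 11.02 after PBS and 11.11, 11.32 and 10.85 after CpG. Cygb was the only one of the 6 whose B6 and NOD ranges over 12 arrays overlapped (6.23 to 7.47 and 7.12 to 11.32): CpG-injected NOD CD8+ cells overlapped B6 CD11b+ cells. Within each condition the strains still did not overlap. NOD exceeded B6 by 1.55 and 0.54 in CD8+ cells (PBS, CpG) and 3.83 and 3.77 in CD11b+ cells (SE 0.17), from 1.45-fold to 14.2-fold.

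Zfp979 was low on every B6 array, from 3.00 to 3.66 with a median of 3.36, never above the array median, and its 4 B6 groups overlapped. In NOD CD8+ cells the values were 5.87, 5.36 and 5.25 after PBS and 5.27, 6.14 and 5.50 after CpG. In NOD CD11b+ cells they were 6.62, 6.74 and 6.45 after PBS and 6.90, 7.09 and 6.40 after CpG. The NOD CD11b+ arrays were all above the NOD CD8+ arrays, and PBS and CpG overlapped in each. Between the strains the difference was 2.21 and 2.18 in CD8+ cells and 3.24 and 3.53 in CD11b+ cells (SE 0.21). A further probe set is annotated to 6 symbols including Zfp979, and its NOD minus B6 differences were 1.12, 0.92, 1.40 and 1.26 in the same order. Signal for a KRAB zinc finger gene can come from near-identical copies, so the share due to Zfp979 itself is uncertain.

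Klra17 was higher in NOD in every condition and lower after CpG in B6. In B6 CD8+ cells its values were 6.72, 7.11 and 6.45 after PBS and 5.47, 5.22 and 5.92 after CpG. In B6 CD11b+ cells they were 6.98, 6.74 and 6.67 after PBS and 5.64, 5.23 and 5.50 after CpG. The 2 subsets of B6 overlapped under each injection, and the injections did not overlap. In NOD CD8+ cells the values were 8.86, 8.55 and 8.93 after PBS and 7.32, 8.25 and 8.97 after CpG. In NOD CD11b+ cells they were 9.86, 10.14 and 9.92 after PBS and 9.46, 9.44 and 9.63 after CpG. The NOD CD8+ CpG group was the widest (SD 0.83) of the 8. NOD minus B6 came to 2.02 and 2.64 in CD8+ cells and 3.18 and 4.05 in CD11b+ cells (SE 0.26). Ly49 genes form a cluster of near-identical copies that differs between strains, so signal on this probe set may include a paralog.

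**Figure D1:**
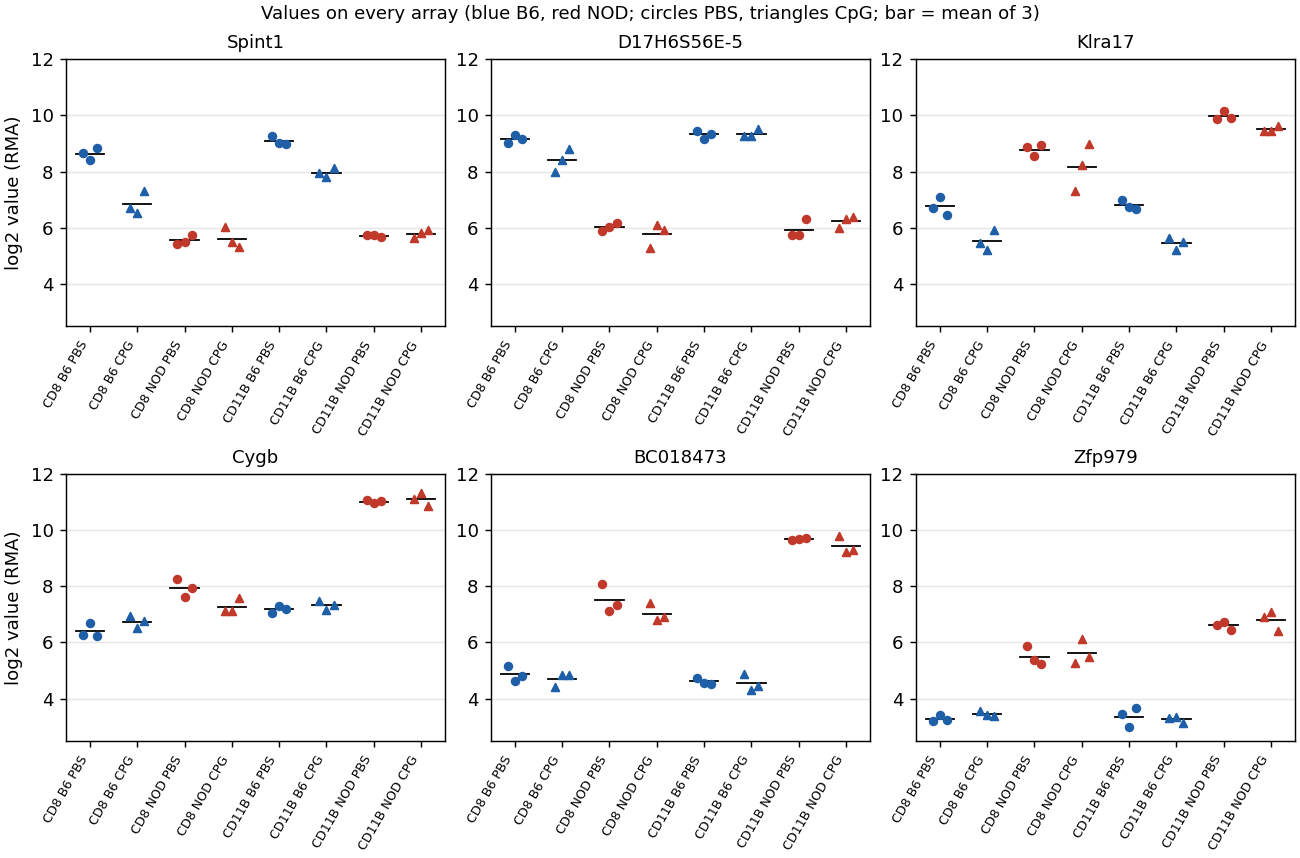
Log2 values of the 6 genes on each of the 24 arrays, by group of subset, strain and injection (points are arrays, bars the mean of 3). Spint1 and D17H6S56E-5 lie lower in NOD and the other 4 higher, and Cygb is the only gene whose NOD and B6 ranges over 12 arrays overlap.

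Against the whole array these differences were large in all 4 conditions, which is what the genes were chosen for. The groups of 3 did not overlap for any of the 6 genes in any of the 4 NOD against B6 comparisons, where 19.7%, 24%, 23.5% and 40.9% of all tested genes did not overlap (CD8+ PBS, CD8+ CpG, CD11b+ PBS, CD11b+ CpG) and 2.6% did not overlap in all 4 in 1 direction. The share of all genes past an adjusted p of 0.05 was 3.62%, 20.2%, 5.59% and 23.2% in the same order, and 1.06% (119 genes) passed in all 4 in 1 direction. Nothing is read from these shares for the 6 genes, whose choice used the same comparisons.

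**Figure D2:**
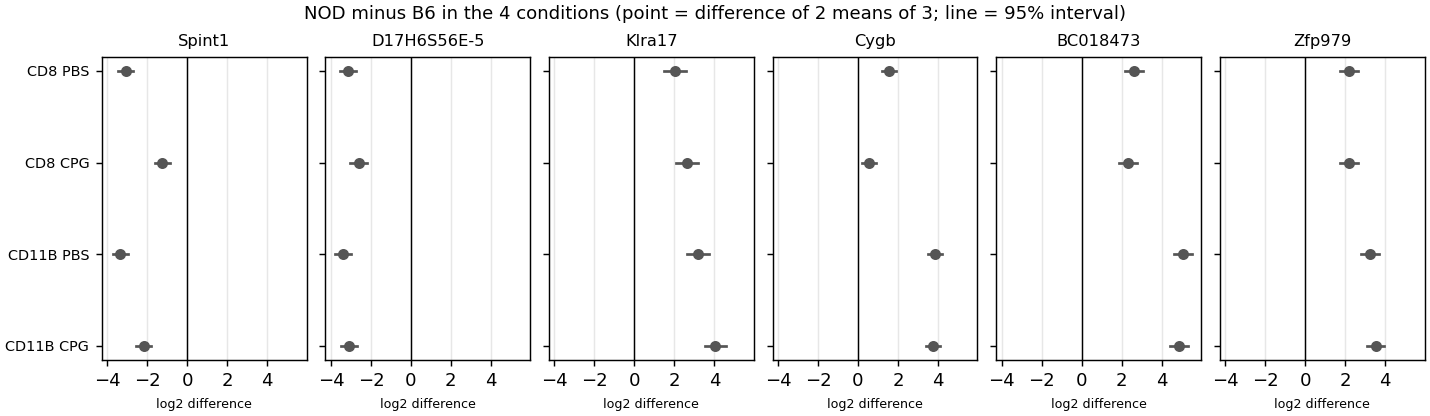
NOD minus B6 difference on the log2 scale for each gene in the 4 conditions of subset and injection, with 95% intervals from the limma fit over 24 arrays. The sign is the same in all 4 conditions for each gene, while Cygb and BC018473 have larger differences in CD11b+ than in CD8+ cells.

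Between the subsets, BC018473, Cygb and Klra17 differed in NOD cells, and each was lower in CD8+ than in CD11b+ cells. This comparison lies within a strain and was not itself used to choose the genes. It shares arrays and group means with the strain differences that were, so its p-values are not independent of the choice. The same holds for the CpG comparisons below. All adjusted p-values here and below are from limma, two-sided, with Benjamini-Hochberg adjustment over the 11228 genes. After PBS in NOD, BC018473 was lower in CD8+ cells by 2.18 (difference -2.18, SE 0.22, adjusted p = 4.67e-08), Cygb by 3.07 (-3.07, SE 0.17, adjusted p = 3.38e-12) and Klra17 by 1.2 (-1.2, SE 0.26, adjusted p = 0.00135). After CpG in NOD these 3 genes differed by -2.41, -3.82 and -1.33 (largest adjusted p = 0.000297). Zfp979 is given as a value with no test. It exceeded the array median on all 6 NOD CD11b+ arrays, on 2 of 6 NOD CD8+ arrays and on no B6 array, and so passed the filter through the group where it is high. Its differences were -1.11 after PBS (95% interval -1.55 to -0.66) and -1.16 after CpG (-1.60 to -0.72). Of all tested genes, 11.2% were lower in CD8+ cells after PBS and 24.1% after CpG. D17H6S56E-5 had a difference of -0.45 after CpG in NOD (adjusted p = 0.0746), which passed with the replicate number as a block (adjusted p = 0.0243) and without NOD CD8+ CpG replicate 2 (-0.62, adjusted p = 0.0267).

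In B6, Cygb was lower in CD8+ cells under both injections, and Spint1 and D17H6S56E-5 after CpG. After PBS, Cygb alone passed, with -0.79 (SE 0.17, adjusted p = 0.00115), where 12.2% of all genes were lower in CD8+ cells. Spint1 had -0.45 there (adjusted p = 0.0846), and passed when only the 2 groups compared were fitted (adjusted p = 0.0126). After CpG, Spint1 (-1.11, adjusted p = 4.28e-05), D17H6S56E-5 (-0.94, adjusted p = 0.000729) and Cygb (-0.59, adjusted p = 0.00816) were lower in CD8+ cells, where 24.5% of all genes were. Without B6 CD8+ CpG replicate 2 the Cygb difference was -0.47 and no longer passed (adjusted p = 0.0555). BC018473, Zfp979 and Klra17 did not pass between the B6 subsets after either injection, with differences from -0.08 to 0.26.

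The size of the strain difference in CD8+ cells was set against that in CD11b+ cells as a strain by subset interaction. It is built from the strain differences that chose the genes, so values are given with 95% intervals and no p, and nothing is read from the counts. After PBS it was -2.43 (-3.07 to -1.79) for BC018473 and -2.28 (-2.78 to -1.79) for Cygb, and these 2 of 6 genes passed in limma beside 0.882% of all genes. After CpG it was -2.55 (-3.19 to -1.91) for BC018473 and -3.23 (-3.72 to -2.73) for Cygb, so the excess in NOD was smaller in CD8+ cells. It was -1.35 (-1.98 to -0.72) for Zfp979, -1.41 (-2.18 to -0.65) for Klra17 and 0.94 (0.41 to 1.47) for Spint1, and 5 of 6 passed beside 5.3% of all genes. BC018473 and Zfp979 passed the filter through NOD arrays alone. With B6 at the low end of the scale, their value largely repeats the subset difference within NOD. D17H6S56E-5 had 0.26 (-0.32 to 0.85) after PBS and 0.48 (-0.10 to 1.07) after CpG. Leaving out 1 array gave values after CpG of 0.73 to 1.17 for Spint1 and -1.81 to -0.98 for Klra17.

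B cell markers differed between the strains in some of the same groups. The mean log2 value of 5 measured B cell markers (of 6 listed) after PBS was 8.60 (arrays 7.85 to 9.04) in NOD CD8+ cells and 7.63 (6.88 to 8.30) in NOD CD11b+ cells, against 7.17 and 6.96 in B6. After CpG it was 7.85 and 7.64 in NOD and 6.67 and 6.55 in B6. Between the strains 2 of 5 were called higher in NOD in each condition but CD11b+ cells after PBS, where 0 were called by limma and 2 had an unadjusted p under 0.05. Between the NOD subsets 1 of 5 was called higher in CD8+ cells after PBS, and after CpG 0 were called and 0 had an unadjusted p under 0.05. The largest differences between strains in CD8+ cells after PBS were those of Ebf1 (1.77) and Cd79a (1.76). Both calls were lost without B6 CD8+ PBS replicate 1 or 3 or NOD CD8+ PBS replicate 1 or 2, where Ebf1 had 1.44 to 1.60 and Cd79a 1.52 to 1.65. Markers of plasmacytoid dendritic cells, which express Klra17, averaged 7.41 in B6 and 7.64 in NOD CD8+ cells after PBS and 6.82 and 6.71 in CD11b+ cells. None of the 7 tested plasmacytoid markers was called between the strains after PBS in limma, and 3 in CD8+ and 1 in CD11b+ cells had an unadjusted p under 0.05. After CpG 2 were called higher in NOD in CD8+ cells and 2 lower in NOD in CD11b+ cells. The part of either cell type in the values of the 4 genes high in NOD was not tested.

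CpG lowered Spint1, Klra17 and D17H6S56E-5 in B6 CD8+ cells. Spint1 fell by 1.78 on the log2 scale (SE 0.18, adjusted p = 2.16e-08), Klra17 fell by 1.22 (SE 0.26, adjusted p = 0.000373) and D17H6S56E-5 fell by 0.76 (SE 0.20, adjusted p = 0.00224). In B6 CD11b+ cells Spint1 fell by 1.13 (adjusted p = 2.6e-05) and Klra17 fell by 1.34 (adjusted p = 0.000271), and D17H6S56E-5 had 0.01 (95% interval -0.40 to 0.42). The count of 3 of 6 genes that fell in B6 CD8+ cells stands beside 36.6% of all tested genes that fell and 21.1% that rose, and 2 of 6 in CD11b+ cells beside 23% and 15.9%. CpG changed much of the transcriptome, and these shares are near that background or not far above it.

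In NOD CD8+ cells Cygb passed, and it fell by 0.66 (difference -0.66, SE 0.17, adjusted p = 0.00333), where 25.5% of all genes fell and 15.1% rose. Klra17 had -0.60 (adjusted p = 0.071), and without NOD CD8+ CpG replicate 3, its highest array, -1.0 (adjusted p = 0.00116). BC018473 had -0.48 (adjusted p = 0.0865), and passed with the replicate number as a block (adjusted p = 0.0329), without NOD CD8+ PBS replicate 2 (-0.68, adjusted p = 0.0262) and without NOD CD8+ CpG replicate 1 (-0.66, adjusted p = 0.0309). In NOD CD11b+ cells 0 of 6 passed in limma and 0 had an unadjusted p under 0.05, where 5.73% of all genes fell and 9.7% rose. The differences there ran from -0.46 for Klra17 (adjusted p = 0.272, and 0.0103 when only the 2 groups were fitted) to 0.31 for D17H6S56E-5. Spint1, at its low NOD level, had 0.06 (95% interval -0.31 to 0.43) in CD8+ and 0.05 (-0.32 to 0.43) in CD11b+ cells. Zfp979 passed in none of the 4 CpG comparisons, with differences from -0.10 to 0.19.

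**Figure D3:**
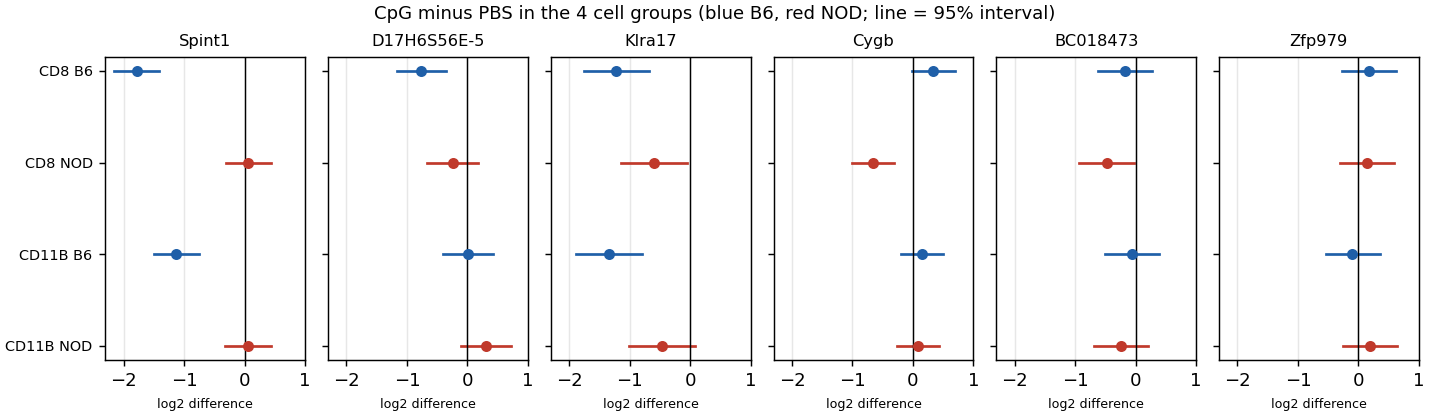
CpG minus PBS difference on the log2 scale for each gene in B6 and NOD cells of the 2 subsets, with 95% intervals from the limma fit. Spint1 lies at -1.78 and -1.13 in B6 and at 0.06 and 0.05 in NOD, and Klra17 lies at -1.22 and -1.34 in B6.

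The CpG change in NOD minus that in B6 is the same quantity as the change of the strain difference with CpG, on which the genes were chosen in part, so it too is given with intervals and no p. For Spint1 it was 1.84 (1.31 to 2.37) in CD8+ cells and 1.18 (0.65 to 1.71) in CD11b+ cells. Spint1 changed by 0.06 in CD8+ and 0.05 in CD11b+ cells of NOD, so this largely repeats its fall in B6. Whether a fall could show at its NOD level, near the array median, was not tested. For Cygb it was -1.01 (-1.50 to -0.51) in CD8+ cells. For Klra17 it was 0.62 (-0.15 to 1.39) in CD8+ and 0.87 (0.11 to 1.64) in CD11b+ cells, and for D17H6S56E-5 0.52 (-0.06 to 1.10) and 0.30 (-0.28 to 0.88). In CD8+ cells 2 of 6 genes passed beside 4.02% of all genes, and in CD11b+ cells 1 of 6 beside 4.38%, and nothing is read from these counts. Leaving out 1 array gave values in CD8+ cells of -1.16 to -0.85 for Cygb, 0.23 to 1.05 for Klra17 and 0.31 to 0.76 for D17H6S56E-5. The B6 side of Cygb was 0.34 (adjusted p = 0.0864), which passed without B6 CD8+ PBS replicate 2 (0.49, adjusted p = 0.0254) or CpG replicate 2 (0.46, 0.0388) and after quantile normalization (0.46, 0.0234).

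The fall of D17H6S56E-5 in B6 CD8+ cells and its value near 0 in B6 CD11b+ cells were compared directly in a test added after the values were seen. In B6, where 13.4% of all genes passed this subset by CpG test in limma, 0 of 6 genes passed and 2 had an unadjusted p under 0.05. D17H6S56E-5 had -0.77 (adjusted p = 0.0708), which passed with the replicate number as a block (adjusted p = 0.0187), with only the 4 groups fitted (0.0253) and without B6 CD8+ CpG replicate 3 (-0.98, adjusted p = 0.0193). Spint1 had -0.66 (adjusted p = 0.0925, and -0.89 with 0.0126 without that array). In NOD, where 6.8% of all genes passed, 0 of 6 passed and 1 had an unadjusted p under 0.05. That gene was Cygb with -0.75 (adjusted p = 0.0625). It passed without NOD CD8+ PBS replicate 2 (-0.90, 0.0327), NOD CD8+ CpG replicate 3 (-0.90, 0.0125) or NOD CD11b+ CpG replicate 3 (-0.87, 0.0399).

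Red pulp macrophage markers, too, differed between the strains in CD11b+ cells after PBS. Over 9 markers the mean log2 value in CD11b+ cells after PBS was 8.47 (arrays 8.03 to 9.08) in B6 and 7.35 (7.26 to 7.42) in NOD, and 5 of 9 were called lower in NOD, among them Cd5l (-1.87) and Hmox1 (-1.42). Without B6 CD11b+ PBS replicate 2 these were -1.45 and -1.23 (adjusted p = 0.0802 and 0.0627), and without NOD CD11b+ PBS replicate 3 Hmox1 was -1.28 (0.0502). In CD8+ cells after PBS it was 7.45 and 6.76, with 0 of 9 called by limma and 5 at an unadjusted p under 0.05. In CD11b+ cells after CpG it was 7.96 (7.54 to 8.47) in B6 and 7.81 (7.78 to 7.83) in NOD, with 1 marker called higher and 1 lower. These means join markers with opposite differences: Adgre1 had 7.30 in B6 and 8.68 in NOD, and Cd5l 7.08 and 5.71. With CpG, 3 of the 9 markers fell and 1 rose in B6 CD11b+ cells, Adgre1 by -2.40 (adjusted p = 1.59e-06) and Mrc1 by -2.30 (adjusted p = 1.13e-05), and in B6 CD8+ cells 1 fell and 2 rose. The part of these cells in the Spint1 values was not tested.

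The genes around each of the 6 on the GRCm38.p6 gene order were looked at because they were no part of the choice. The 10 annotated genes with a usable probe set on each side gave 103 genes, 69 of them tested. Between NOD and B6, 12 of the 69 were called in CD8+ cells after PBS (17.4%, against 3.62% of all genes), 20 in CD8+ cells after CpG (29% against 20.2%), 18 in CD11b+ cells after PBS (26.1% against 5.59%) and 24 in CD11b+ cells after CpG (34.8% against 23.2%). After PBS in CD8+ cells 8 were higher and 4 lower in NOD, and in CD11b+ cells 7 were higher and 11 lower. In CD11b+ cells, 5 of the 18 after PBS and 9 of the 24 after CpG were among the 12 tested neighbours of Klra17. Of the 9, Klra8, Klre1, Klrc2 and Klra2 passed the filter largely through B6 CD11b+ cells after CpG. The counts in CD11b+ cells are therefore descriptions. With only the CD8+ CpG groups fitted the count of 20 became 5. With a filter on 12 arrays the count of 24 became 14. Called in 1 direction in all 4 conditions were St6galnac2, Vars, Zfyve19 and Miip.

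St6galnac2, which encodes a sialyltransferase, lies between Cygb and BC018473 and was higher in NOD in all 4 conditions. Its values in NOD were 8.12, 7.88 and 7.60 (CD8+ PBS), 7.57, 7.37 and 7.53 (CD8+ CpG), 10.17, 9.93 and 9.97 (CD11b+ PBS) and 10.14, 9.47 and 9.40 (CD11b+ CpG). All B6 group means lay between 6.14 and 6.56. NOD was thus above B6 in every group, and NOD CD11b+ cells above NOD CD8+ cells. The NOD minus B6 difference was 1.31 and 1.14 in CD8+ cells (adjusted p = 6.8e-05 and 0.000155) and 3.61 and 3.53 in CD11b+ cells (2.79e-12 and 2.89e-12; SE 0.19). Between the subsets it was lower in NOD CD8+ cells by -2.16 after PBS (adjusted p = 4.48e-09) and -2.18 after CpG (2.92e-09), and in B6 it had 0.15 (0.674) and 0.21 (0.401), where Cygb passed and BC018473 did not.

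The annotation places 7 genes between Cygb and BC018473, of which Prcd, Snhg16 and St6galnac2 had a usable probe set. The differences were not equal along this stretch. After PBS in CD11b+ cells NOD minus B6 was 0.07 for Rhbdf2, 3.83 for Cygb, 0.49 for Prcd, 1.16 for the non-coding Snhg16, 3.61 for St6galnac2, 5.06 for BC018473, 1.03 for St6galnac1, 0.99 for Mxra7, 0.45 for Jmjd6 and 0.02 for Mettl23. In CD8+ cells after PBS Snhg16 had 0.14 and St6galnac1 1.58. Rhbdf2 and Mettl23, at the ends of the stretch, were near 0 in CD11b+ cells. Prcd and Snhg16, between Cygb and St6galnac2, had smaller values than both, while St6galnac2 and BC018473 were next to each other among the measured genes. Within NOD the correlation of Cygb and BC018473 over 12 arrays was 0.97, and within B6 it was -0.57, over arrays of 2 subsets and with no test.

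**Figure D4:**
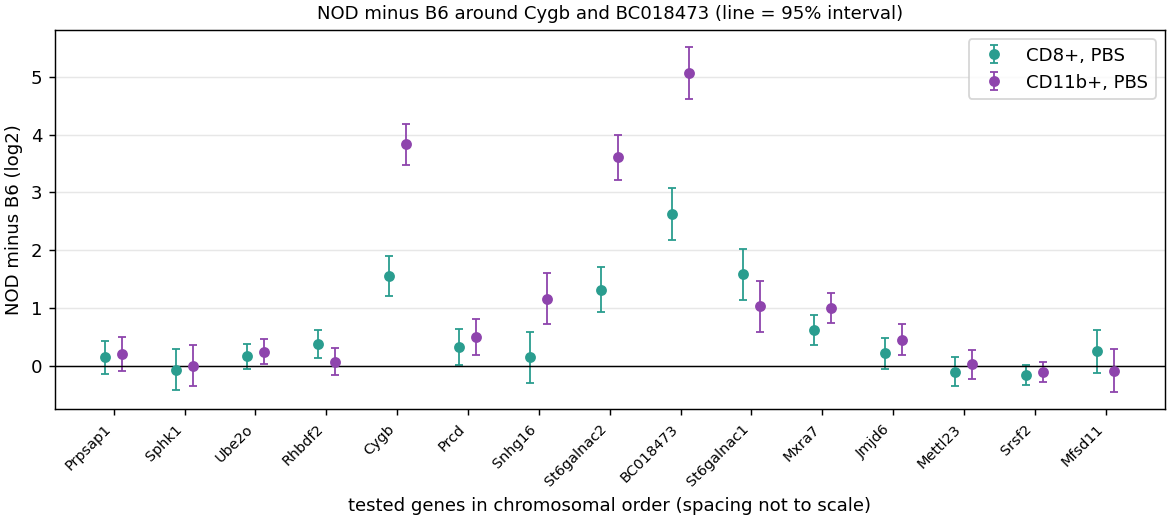
NOD minus B6 difference on the log2 scale after PBS, in CD8+ and CD11b+ cells, for genes in annotated order around Cygb and BC018473, with 95% intervals. Cygb, St6galnac2 and BC018473 stand highest in CD11b+ cells, at 3.83, 3.61 and 5.06, with smaller values for Prcd and Snhg16 between the first pair and for the genes on either side.

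Vars, which encodes valyl-tRNA synthetase, is the gene next to D17H6S56E-5 and was also lower in NOD, by less. Its values in CD8+ cells were 8.15, 8.03 and 8.05 in B6 and 6.89, 7.05 and 7.15 in NOD after PBS, and 6.96, 7.16 and 7.30 in B6 and 6.67, 6.64 and 6.84 in NOD after CpG. No NOD array reached a B6 array in either pair. The NOD minus B6 difference was -1.05 and -0.42 in CD8+ cells (adjusted p = 5.21e-07 and 0.00731) and -1.22 and -0.94 in CD11b+ cells (2.82e-08 and 6.87e-07; SE 0.11). The CD8+ CpG value was lost when only those groups were fitted (adjusted p = 0.17). With CpG Vars fell in B6 CD8+ cells, as D17H6S56E-5 did, by 0.94 (difference -0.94, adjusted p = 1.09e-07). It also passed in NOD CD8+ (-0.31, adjusted p = 0.0227) and B6 CD11b+ cells (-0.32, 0.0192), where D17H6S56E-5 did not. The first of these was lost without NOD CD8+ PBS replicate 2 or 3 or CpG replicate 1 or 2 (-0.30 to -0.25) and after quantile normalization (-0.22, 0.0875), and the second without B6 CD11b+ PBS replicate 1 or 3 or CpG replicate 1 (-0.30 to -0.25). Lsm2, the neighbour on the other side, was called between the strains in none of the 4 conditions (-0.33, 0.39, -0.47 and -0.23). Without NOD CD8+ CpG replicate 1 its second value was 0.78 and passed (adjusted p = 0.00185), opposite in sign to D17H6S56E-5, and with only the CD11b+ PBS groups fitted the third passed (adjusted p = 0.0295).

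Near Spint1, Zfyve19 was lower in NOD by -0.86, -0.63, -0.75 and -0.76 (SE 0.13, largest adjusted p = 0.00162), and the second of these was lost when only the CD8+ CpG groups were fitted (adjusted p = 0.0848). Near Zfp979, Miip was lower in NOD by -0.60, -0.92, -0.66 and -0.38 (SE 0.11, largest adjusted p = 0.00985), opposite to Zfp979. The last of these was lost without B6 CD11b+ CpG replicate 1 (-0.33, adjusted p = 0.0578) or NOD CD11b+ CpG replicate 2 (-0.33, adjusted p = 0.0594).

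Around Klra17 no tested neighbour was called higher in NOD. Of 12, 0 were called lower by limma in CD8+ cells after PBS (4 of 12 had an unadjusted p under 0.05), 1 in CD8+ cells after CpG, 5 in CD11b+ cells after PBS and 9 in CD11b+ cells after CpG. The last were led by Klrc1 (-4.81), Klra8 (-3.78), Klre1 (-3.67) and Klra3 (-3.34), all receptors of NK cells. Klra8, Klre1, Klrc2 and Klra2 had a mean above the array median only in B6 CD11b+ cells after CpG. They passed the filter largely through that group, so nothing is read from the counts in CD11b+ cells. Klra3 had 6.12, 6.87 and 5.85 in B6 CD11b+ cells after PBS and 8.77, 9.74 and 8.54 after CpG, against 5.28 to 5.77 in NOD CD11b+ cells. Klra17, in the same family, was at its lower B6 level (5.46 ± 0.21, SD, n = 3) in the group in which Klra3 and Klra8 had their highest values.

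With CpG in B6 CD11b+ cells, Klra3 rose by 2.74 (adjusted p = 1.12e-08), where 15.9% of all genes rose. Klra8 and Klra2 are given as values with no test. Their means exceeded the array median in this group after CpG alone, so they passed the filter largely through the group where they are high. Klra8 differed by 2.83 and Klra2 by 1.18, and Klra2 by 0.62 without B6 CD11b+ CpG replicate 2. These were the 3 tested Ly49 genes other than Klra17, of 5 listed. Their median was 2.74, against -0.07 over all genes. None of the 3 passed in limma in the other 3 CpG comparisons, and 1 had an unadjusted p under 0.05, in NOD CD11b+ cells. That was Klra2 with 0.81, which passed there with the replicate number as a block (adjusted p = 0.046). The 12 NK cell markers moved with them in B6 CD11b+ cells, where their mean rose from 6.70 (arrays 6.42 to 7.08) to 9.65 (9.22 to 10.25). Of the 12, 11 rose and 1 fell, and all 12 had a group mean above the array median after CpG. In each of the other groups 4 to 7 of them did, so some, Klre1 among them, passed the filter largely through this group. Nothing is read from these counts. In NOD CD11b+ cells the mean of the 12 markers went from 5.75 to 6.90. The part of NK cells in the Ly49 values, those of Klra17 included, was not tested.

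**Figure D5:**
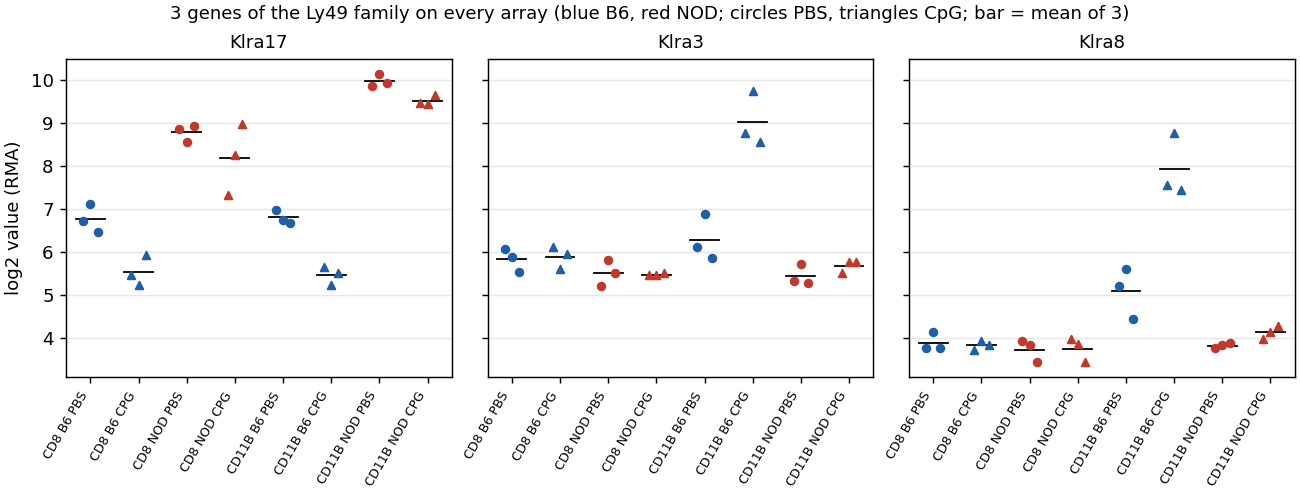
Log2 values of Klra17, Klra3 and Klra8 on each of the 24 arrays by group (points are arrays, bars the mean of 3). Klra17 is higher in NOD and lowest in B6 after CpG, while Klra3 and Klra8 are high in B6 CD11b+ cells after CpG, at 8.54 or more and 7.43 or more.

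The list of Ly49 partners held adaptors, phosphatases and MHC class I chains, and also 4 genes of the CD94/NKG2 receptors of NK cells (Klrd1, Klrk1, Klrc1, Klrc2), 12 in all, of which 10 were tested. With CpG, 3 rose and 5 fell in B6 CD8+ cells and likewise in NOD CD8+ cells, 4 rose and 4 fell in B6 CD11b+ cells, and 2 rose and 0 fell in NOD CD11b+ cells. Of the 4 that rose in B6 CD11b+ cells, 3 were Klrc1, Klrc2 and Klrk1, and Klrc2 had a mean above the array median in no other group. Of all genes, for this list and those below, 21.1% rose and 36.6% fell in B6 CD8+ cells. The shares were 15.1% and 25.5% in NOD CD8+ cells, 15.9% and 23% in B6 CD11b+ cells and 9.7% and 5.73% in NOD CD11b+ cells. Inpp5d, the SHIP-1 phosphatase, had -2.20 (adjusted p = 2.37e-09), -1.24 (2.24e-05), -1.08 (9.1e-05) and -0.36 (0.248) in B6 CD8+, NOD CD8+, B6 CD11b+ and NOD CD11b+ cells. B2m, the light chain of MHC class I, rose in all 4, by 0.39, 0.24, 0.37 and 0.20. The last was lost without NOD CD11b+ PBS replicate 1 (0.17, adjusted p = 0.0828) or CpG replicate 1 (0.19, 0.0593) and with eBayes without trend (0.122). Klrc1 rose in B6 CD11b+ cells by 3.11 (adjusted p = 2.17e-06), the group in which NK markers were high.

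Of the protease axis around Spint1, 8 of 15 listed genes were tested, and no shift shared by the list accompanied the fall of Spint1. With CpG the list had 2 genes that rose and 1 that fell in B6 CD8+ cells, 1 and 1 in NOD CD8+ cells, 1 and 2 in B6 CD11b+ cells and 1 and 1 in NOD CD11b+ cells, with medians of 0.03, 0.09, -0.14 and -0.11 against -0.10, -0.08, -0.07 and -0.04 over all genes. Spint2, which encodes the related inhibitor HAI-2, rose in all 4, by 0.81 (adjusted p = 2.25e-05), 0.95 (7.44e-06), 0.44 (0.0124) and 0.50 (0.0113). The B6 CD11b+ value was lost without PBS replicate 2 (0.35, 0.0732), CpG replicate 1 (0.37, 0.0658) or CpG replicate 3 (0.32, 0.0886), and the NOD CD11b+ value without PBS replicate 2 (0.44, 0.0631) or CpG replicate 1 (0.46, 0.06). St14, which encodes matriptase, had 0.09, 0.32, -0.18 and -0.04 and passed in none. Its value in NOD CD8+ cells passed with the replicate number as a block (adjusted p = 0.0373), after quantile normalization (0.42, 0.0181) and without NOD CD8+ CpG replicate 3 (0.42, 0.0235). Epcam fell in CD11b+ cells of both strains, by -0.64 in B6 (adjusted p = 0.00044) and -0.88 in NOD (2.61e-05). Between the strains limma called no list gene in CD8+ cells after PBS (2 had an unadjusted p under 0.05), where Spint1 differed by -3.08, and 3 were higher in NOD in CD11b+ cells after PBS.

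For Cygb, the list of globins and heme proteins had 5 tested genes of 12. Cyb5a, cytochrome b5, fell with CpG in B6 CD8+ (-2.20, adjusted p = 2.3e-09), NOD CD8+ (-1.28, 1.44e-05) and B6 CD11b+ cells (-1.45, 2.02e-06), and had -0.44 in NOD CD11b+ cells (0.136). That value passed with the replicate number as a block (0.0393) and without NOD CD11b+ PBS replicate 1 (-0.65, adjusted p = 0.03). The list had 2, 1, 1 and 0 genes that fell in that order and none that rose, with 2, 1, 1 and 2 at an unadjusted p under 0.05. Between the strains after PBS limma called no list gene in CD8+ cells, with 0 at an unadjusted p under 0.05, and 1 lower in NOD in CD11b+ cells, where Cygb was 3.83 higher.

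The cofactors of KRAB zinc finger proteins were tested in full, 9 of 9. With CpG, 3 rose and 3 fell in B6 CD8+ cells, 2 and 3 in NOD CD8+ cells, 2 and 2 in B6 CD11b+ cells, and 1 and 1 in NOD CD11b+ cells. Trim28, the corepressor, changed by -0.80 (adjusted p = 2.13e-05), -0.47 (0.00731), -0.39 (0.0224) and -0.41 (0.0379). The second was lost without NOD CD8+ CpG replicate 1 (-0.27, adjusted p = 0.0811), and the third without B6 CD11b+ PBS replicate 1 (-0.34, 0.0878) or 3 (-0.33, 0.0941) or CpG replicate 1 (-0.36, 0.0769). The fourth was lost after median centring (-0.38, 0.0887) and without any of 5 of its 6 arrays, NOD CD11b+ CpG replicate 3 being the exception (-0.45 to -0.32, adjusted p from 0.0541 to 0.213). Morc3 rose in all 4, by 1.02, 0.60, 0.68 and 0.50 (largest adjusted p = 0.00163). Between the strains after PBS limma called none of the 9 in either subset, with 0 in CD8+ and 1 in CD11b+ cells at an unadjusted p under 0.05. Of 6 tested KRAB zinc finger genes with names near Zfp979, 2 rose and 2 fell with CpG in B6 CD8+ cells, among them Zfp971 (-1.56, adjusted p = 6.26e-07) and Zfp991 (-1.04, adjusted p = 0.000272). In the other 3 comparisons 1 passed, Zfp971 in B6 CD11b+ cells (adjusted p = 0.0217), and Zfp979 passed in none. That call was lost without B6 CD11b+ PBS replicate 3 (-0.56, 0.0645) or CpG replicate 1 (-0.48, 0.106) or 3 (-0.57, 0.0584). Zfp985, next to Zfp979, had NOD minus B6 values of 0.80, 0.08, 0.32 and 0.25, of which the first passed (adjusted p = 0.0346). It was lost without B6 CD8+ PBS replicate 1 (0.87, 0.0616) or 3 (0.57, 0.267) or NOD CD8+ PBS replicate 1 (0.68, 0.203) or 2 (0.77, 0.124).

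In the MHC class III region around D17H6S56E-5, 24 of 35 listed genes were tested. With CpG, 10 rose and 8 fell in B6 CD8+ cells and 8 and 3 in NOD CD8+ cells. In CD11b+ cells 8 rose and 3 fell in B6, and 7 and 2 in NOD. The shares of all genes are those given with the Ly49 partners. The medians were 0.12, 0.11, 0.11 and 0.28, against -0.10, -0.08, -0.07 and -0.04 over all genes. Cfb, complement factor B, rose by 2.31, 2.51, 3.85 and 3.14 (largest adjusted p = 2.72e-10), and Lta, lymphotoxin alpha, by 1.07 in B6 CD8+ cells and 2.12 and 1.34 in CD11b+ cells. D17H6S56E-5 fell in B6 CD8+ cells and passed in none of the other 3, and in NOD its values sat near the array median.

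The genes whose log2 values followed each of the 6 most closely over the 24 arrays shared the strain difference, and differed in how far they followed it within a strain. These correlations are descriptions over arrays that fall into 2 strains, so the values within 12 B6 and within 12 NOD arrays are given as well. Spint1 was most like Apoe (r = 0.958, 0.88 within B6 and 0.44 within NOD) and Vars (0.958, 0.94 and -0.22). BC018473 was most like St6galnac2 (0.976, 0.25 and 0.98), and Cygb most like Chst10 (0.977, 0.78 and 0.97), Vsx1 (0.97, 0.41 and 0.97) and Trem1 (0.952, 0.65 and 0.97). Zfp979 was most like Hebp1 (0.933, -0.13 and 0.92), D17H6S56E-5 most like Trim12a (0.964, -0.04 and 0.38), and Klra17 most like Cep290 (0.951, 0.73 and 0.81). For Zfp979 the likeness to Hebp1 was high within NOD and not within B6, where Zfp979 sat at the low end of the scale.

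Array probes are short and designed on a reference mouse sequence, and a base that differs between the strains under a probe lowers its signal in the strain that carries it. For Spint1 and D17H6S56E-5 the strain with the lower signal was NOD, and for the other 4 genes it was B6. Values of single probes were not used here and the annotation gave none of the 6 a second probe set with that symbol alone, so probe variants were not tested. The CpG and subset differences compare arrays of 1 strain and so the same sequence, which is a separate matter from the NOD minus B6 differences. How far probe variants enter the NOD minus B6 differences was not tested.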

How the data were processed

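Conventional dendritic cells of 8 groups, each of 3 arrays, were sorted and amplified from 5 ng of RNA, and 2.5 µg of cDNA was hybridised, per the labels' protocols. The deposited log2 values (1.92 to 14.1) come from RMA normalization in the Partek software by the authors (per the submitters' processing notes; versions are not given in the sources used here) and were used unchanged. The array model in the labels differs from that whose annotation matches the probe identifiers, so it is unsettled. Of 35556 probe sets, 21789 had 1 gene symbol, 1621 several and 12146 no entry, and the highest mean of 24 arrays stood for a gene. In R 4.3.3, limma 3.58.1 estimated the 8 group means (16 residual degrees of freedom) with trended eBayes (tested on simulated data), called at an adjusted p of 0.05. The number of arrays limits the precision.

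The 6 genes, the lists and the tests were chosen with earlier results of these data known. Named besides the 6 were up to 4 called and 2 uncalled genes of a list per kind of comparison and up to 2 marker genes per list. Neighbours called in 1 direction in all 4 strain comparisons were named too. Of the 3 genes most like each of the 6, all 3 were named for Cygb and fewer for the others. Other neighbours (Rhbdf2, Prcd, Snhg16, St6galnac1, Mxra7, Jmjd6, Mettl23, Lsm2, Zfp985, Klrc1, Klra8, Klre1, Klra3) were named for their position or after their values were seen. Replicate numbers come from the sample titles. Deviations of same-numbered arrays from their group means correlated above 0.1 for every pair in 8 of 12 comparisons (-0.108 to 0.544 over all). These were the CpG comparisons in NOD, all 4 between subsets, and NOD against B6 in CD8+ cells. The last had 0.2 to 0.288 after PBS and 0.242 to 0.544 after CpG. For the CpG and subset comparisons the replicate block is therefore given if it changed a call. What same-numbered arrays of different strains share was not tested. Alternatives were other filters, probe-set means, quantile normalization, median centring, eBayes without trend or robust, fitting only the groups compared, the replicate block and leaving out each array.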

Additional observations from a re-analysis of the deposited data

Results flagged for a closer look

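In the limma fit, 5 of the 6 genes were flagged because their NOD minus B6 difference passed the threshold for an interaction with subset or injection. The genes were chosen on these differences, so the values are descriptions and nothing is read from the passes. BC018473 and Zfp979 also passed the filter through NOD arrays alone. Of all genes 4.02% and 4.38% passed the strain by CpG test in CD8+ and CD11b+ cells, and 0.882% and 5.3% the strain by subset test after PBS and CpG. The strain difference of Spint1 moved with CpG by 1.84 in CD8+ cells and 1.18 in CD11b+ cells, and after CpG it differed between the subsets by 0.94. That of BC018473 differed between CD8+ and CD11b+ cells by -2.43 after PBS and -2.55 after CpG. That of Cygb differed by -2.28 and -3.23, and moved with CpG in CD8+ cells by -1.01. Zfp979 (-1.35) and Klra17 (-1.41) differed between the subsets after CpG. The sign of the strain difference was the same on both sides of each of these. The 6 genes gave 12 tests of a strain by CpG and 12 of a strain by subset interaction, and these share the arrays on which the genes were chosen. Groups of 3 arrays are too small for a check on single outlying arrays.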

How the results depend on the processing

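Over all alternatives no difference of the 6 genes changed its sign while called, and the 356 recomputed NOD minus B6 values all kept their direction and size within the spread. Of 356 recomputed CpG values 8 gained a call and none lost one, and of 356 subset values 3 gained and 1 lost one. Of 250 strain by CpG values 4 lost and 3 gained a call, and of 250 strain by subset values 13 lost and 1 gained one. With only the groups compared in the fit, the genes called were 1 of 6 (from 0) for CpG in NOD CD11b+ cells, 2 (from 1) for the subsets in B6 after PBS, 1 (from 2) and 2 (from 1) for strain by CpG in CD8+ and CD11b+ cells, 3 (from 5) for strain by subset after CpG, and 5 neighbours (from 20) between the strains in CD8+ cells after CpG. A filter on 12 arrays left 14 called neighbours (from 24) in CD11b+ cells after CpG. The replicate block gave 2 genes (from 1) for CpG in NOD CD8+ cells and 1 (from 0) for subset by CpG in B6, and changed no other count of the 6 by over 1.5 times. Leaving out 1 array gave 1 to 4 genes for strain by CpG in CD8+ cells, 1 to 2 for CpG in NOD CD8+ cells, and 9 to 15 list genes (from 15) for CpG in NOD CD11b+ cells. Counts over all genes moved more: in CD8+ cells after CpG 2270 genes between the strains became 390 with only those groups fitted and 1111 to 3945 without 1 array, and for strain by CpG 451 became 164, 728 with the block, and 231 to 2071. The cause of these changes was not tested. No alternative with another probe set of a gene could be run, as each of the 6 has 1.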
